A study of Mus musculus with 2 samples.

Results

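The 10 genes described here carry the transforming growth factor beta (TGF beta) signal in mouse hearts of 2 ages. They are the ligands Tgfb1, Tgfb2 and Tgfb3, the receptors Tgfbr1, Tgfbr2 and Tgfbr3, the latent TGF beta binding proteins Ltbp1, Ltbp2 and Ltbp4, and the intracellular transducer Smad3. They were chosen by name, by a rule that uses no measured value, out of 25235 genes listed in either of the 2 gene tables. Earlier results of these data were known when they were chosen. All 10 were listed in both tables with at least 20 reads in each. Each table held the SNP-overlapping reads of nuclei from the heart of 1 female F1 hybrid of a C57BL/6J (BL6) mother and a CAST/EiJ (CAST) father, adult (9 weeks) or aged (78 weeks), whose genotype field reads C57BL/6JxCAST/EiJ. The breed field of both animals also names the Xist -/+ state of the BL6 mother, and the study's text calls the 2 hearts wild type. Nuclei were isolated from frozen organs, stained with the DNA dye DRAQ7, sorted and made into 3′ single-nucleus RNA-seq (snRNA-seq) libraries. The values cover nuclei in which the X chromosome of the mother was the active one, added up over all cell types, so that no value belongs to a particular cell type.

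TGF beta is secreted as a latent complex, in which the ligand stays wrapped in its own propeptide and is tied by latent TGF beta binding proteins to the fibrillin fibres of the extracellular matrix. Once released, for instance by integrins, the ligand binds the receptor kinase encoded by Tgfbr2, which activates the kinase encoded by Tgfbr1, which in turn phosphorylates SMAD2 and SMAD3 so that they enter the nucleus with SMAD4. In the heart the pathway is best known for turning fibroblasts into matrix-producing, contractile cells after injury.

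SNP-overlapping reads numbered 9747535 in the adult library, over 24015 genes, and 5805807 in the aged one, over 22691 genes, of which the 10 genes took 6696 and 5912 reads. Levels are given as SNP-overlapping reads scaled to 1e+06 reads of the library (RPM). Every interval below is at 95%, treats reads as independent and covers the error of counting reads alone, since there was 1 library per age. For that reason no test between the ages was possible, no p-value is given, and a ratio whose interval leaves out 1 describes these 2 hearts and not the ages.

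Ltbp4, Tgfb1 and Smad3 had the highest aged-to-adult ratios of the 10 genes. The 250 bases before their start sites are shown because these were the members that differed most in the same direction, and 8 of the 10 genes (not Tgfb3 and Tgfbr3) matched an entry of the promoter table by symbol. The sequences are those of RefSeq on GRCm38.p6, written 5′ to 3′ on the strand of the gene. Capitals mark the GC box (GGGCGG or, on the other strand, CCGCCC), the letters that SP1-like factors bind, and the search also covered the SMAD box (CAGAC or GTCTG). The letters of the 2 motifs were counted on both strands, and matches of a motif that overlap each other were each counted.

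The stretches of the 3 genes follow, with the position and strand of each.
Ltbp4, chr7:27333664-27333913, minus strand: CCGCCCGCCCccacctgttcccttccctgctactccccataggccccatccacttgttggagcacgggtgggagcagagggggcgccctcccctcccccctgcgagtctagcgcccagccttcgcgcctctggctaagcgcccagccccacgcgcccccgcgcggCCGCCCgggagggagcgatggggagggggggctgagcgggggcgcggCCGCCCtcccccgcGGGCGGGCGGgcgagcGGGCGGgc
Tgfb1, chr7:25686752-25687001, plus strand: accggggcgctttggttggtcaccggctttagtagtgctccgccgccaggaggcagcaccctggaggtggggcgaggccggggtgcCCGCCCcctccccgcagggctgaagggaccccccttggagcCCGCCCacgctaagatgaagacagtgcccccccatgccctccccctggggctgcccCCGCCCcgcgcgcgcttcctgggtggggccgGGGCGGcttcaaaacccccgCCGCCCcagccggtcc
Smad3, chr9:63757995-63758244, minus strand: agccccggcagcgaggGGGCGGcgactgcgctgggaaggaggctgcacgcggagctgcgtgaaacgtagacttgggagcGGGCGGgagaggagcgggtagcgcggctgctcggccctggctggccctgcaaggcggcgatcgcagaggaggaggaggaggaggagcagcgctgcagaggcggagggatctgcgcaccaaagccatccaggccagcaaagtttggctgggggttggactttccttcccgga

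The Ltbp4 stretch had a GC content of 79.2%, 28 CpG dinucleotides and 7 GC boxes. The start site that it precedes lies inside the locus used for counting, which reaches further upstream. The Tgfb1 stretch had a GC content of 75.2%, 21 CpG dinucleotides and 5 GC boxes. The Smad3 stretch had a GC content of 69.2%, 22 CpG dinucleotides and 2 GC boxes. All 3 were richer in G and C than the median of 52.4% over the 32851 promoters of the table, in which 32.7% held a GC box and 42.2% a SMAD box. The SMAD box letters did not occur in these 3 windows. A match is a description of the letters, and no binding was measured.

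Levels of the 10 genes spanned from 5.75 RPM for Ltbp2 to 240.1 RPM for Tgfbr3 in adult nuclei and from 3.44 to 375 RPM for the same genes in aged nuclei. The plot of levels by gene shows this spread. 6 of the 10 genes were at least 1.5-fold higher in aged nuclei (Tgfb1, Tgfb3, Tgfbr2, Tgfbr3, Ltbp4 and Smad3), against 28.0% of the 12736 genes with at least 20 reads in both libraries. 1 gene, Ltbp2, was at least 1.5-fold lower, against 11.8% of all genes. The median ratio of the 10 genes was 1.56, and that of all 12736 genes was 1.17 with quartiles of 0.865 and 1.56. Most genes thus stood higher in aged nuclei on this scale, with 64.2% of the 12736 above 1.

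**Figure D1:**
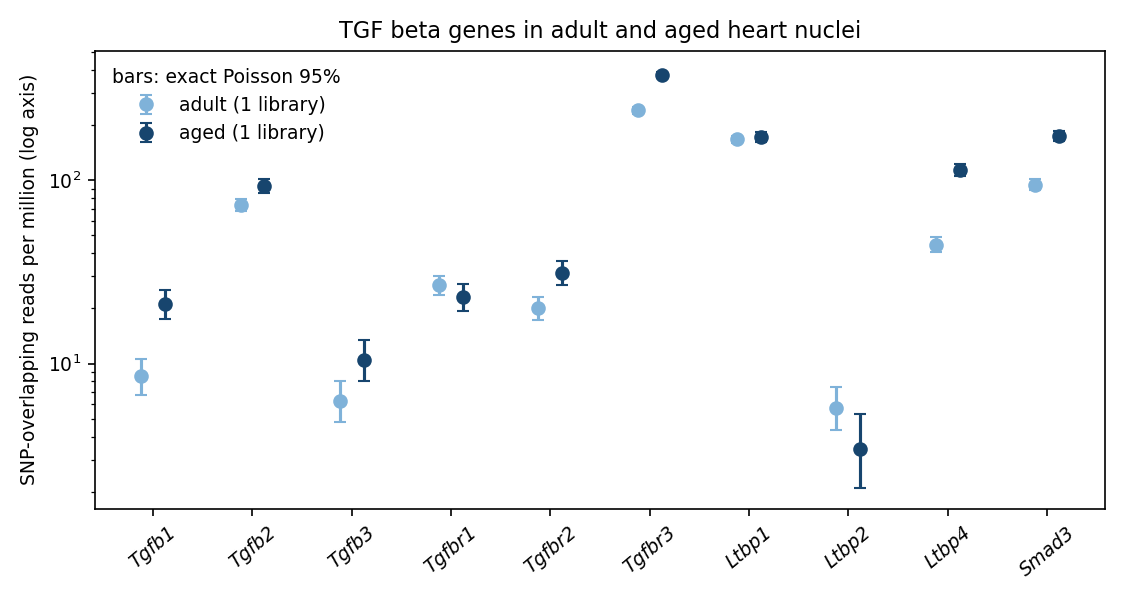
SNP-overlapping RPM (log axis) of each gene in the adult (light) and the aged (dark) library, with exact Poisson 95% intervals as bars and 1 library per age. Tgfbr3 was highest and Ltbp2 lowest in both libraries. The aged point lies above the adult point for 8 of the 10 genes, beside 64.2% of all genes with a ratio above 1.

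Relative to the median ratio of the 7264 genes with at least 100 reads in both libraries (1.15, or 0.21 on the log2 scale), 3 of the 10 genes stayed at least 1.5-fold higher, Tgfb1, Ltbp4 and Smad3, against 18.6% of all genes. Ltbp2 stayed at least 1.5-fold lower, against 17.9%. On that scale the interval lay above 1 for 6 of the 10 genes, against 29.7% of all genes, and below 1 for 3 of them, Tgfbr1, Ltbp1 and Ltbp2, against 30.1%. The aged-to-adult ratio also moved with the length of a gene's locus over all genes, from a median of 1.31 for loci under 20 kb to 0.947 for loci over 200 kb. The part of locus length in the differences was not tested, and the ratio of each gene over the median of its length class is given below. After that division 4 genes stayed at least 1.5-fold higher (Tgfb1, Tgfbr3, Ltbp4 and Smad3), against 16.8% of all genes, and Ltbp2 at least 1.5-fold lower, against 18.5%.

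**Figure D2:**
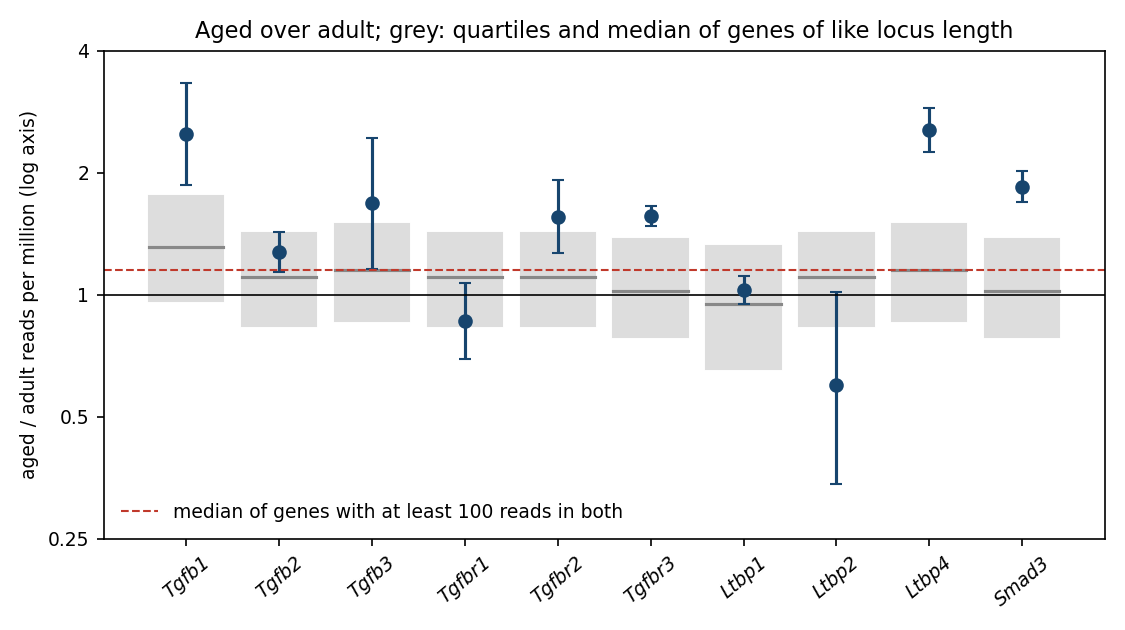
Aged-to-adult ratio of RPM (log axis) for each gene, with its exact 95% counting interval as a bar. Grey boxes give the quartiles and grey lines the median of all genes in the same class of locus length, and the dashed line is the median of genes with at least 100 reads in both libraries (1.15). Tgfb1, Tgfbr3, Ltbp4 and Smad3 lie above their boxes with their whole intervals, and Ltbp2 lies below its box at 0.600.

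Among the ligands, Tgfb1 differed most between the 2 libraries and Tgfb2 had the most reads in both. Tgfb1 (chr7:25687002-25705077, plus strand, GRCm38) encodes the ligand best known from fibrosis and from immune and blood cells. It had 83 reads or 8.51 RPM (6.78 to 10.6) in adult nuclei and 123 reads or 21.2 RPM (17.6 to 25.3) in aged nuclei. The aged-to-adult ratio was 2.49 (1.87 to 3.33), or 1.32 on the log2 scale, which placed it at percentile 94.8 of all genes. The intervals of the 2 levels did not overlap, and the ratio was 2.16 over the median gene and 1.90 over loci under 20 kb. Both alleles showed it, with a ratio of 2.42 (1.59 to 3.69) for BL6 reads alone and of 2.56 (1.71 to 3.87) for CAST reads alone.

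Tgfb2 (chr1:186622787-186706220, minus strand) encodes a ligand that depends on the co-receptor betaglycan for efficient binding. It had 713 reads or 73.1 RPM (67.9 to 78.7) in adult nuclei and 540 reads or 93.01 RPM (85.3 to 101) in aged nuclei, a ratio of 1.27 (1.13 to 1.42). Over loci of 50 to 100 kb the ratio was 1.15, and over the median gene it was 1.10 with an interval from 0.984 to 1.23, so that the difference was not distinguishable from that of a typical gene. The alleles were unequal, with a ratio of 1.11 (0.9504 to 1.29) for BL6 reads and of 1.52 (1.28 to 1.81) for CAST reads.

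Tgfb3 (chr12:86056743-86079041, minus strand), the ligand best known from palate development, had 61 reads in each library. Scaled to depth these were 6.26 RPM (4.79 to 8.04) in adult and 10.5 RPM (8.04 to 13.5) in aged nuclei, intervals that met at their ends. The ratio of 1.68 (1.16 to 2.43) fell short of 1.5-fold over the median gene, at 1.46 (1.00 to 2.11), and over loci of 20 to 50 kb, also at 1.46.

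Ratios between 2 genes of the same library do not depend on how the libraries were scaled, and 9 such pairs were compared within the ligands, receptors and binding proteins. Reads of Tgfb1 per read of Tgfb2 were 0.116 in adult and 0.228 in aged nuclei, 1.96 times (1.43 to 2.68) as many. Reads of Tgfb1 per read of Tgfb3 were 1.36 and 2.02, or 1.48 times as many with an interval of 0.920 to 2.39 that included 1. Reads of Tgfb2 per read of Tgfb3 were 11.7 and 8.85, or 0.757 times as many (0.513 to 1.12). Tgfb1 thus took a larger share relative to Tgfb2 in aged nuclei, and neither ligand could be set apart from Tgfb3 at these depths.

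Of the receptors, Tgfbr3 and Tgfbr2 were higher in aged nuclei and Tgfbr1 was not. Tgfbr3 (chr5:107106570-107289595, minus strand) encodes betaglycan, the co-receptor that presents ligand to the signalling receptors. It had 2340 reads or 240.1 RPM (230.4 to 249.99) in adult nuclei and 2179 reads or 375 RPM (359.7 to 391) in aged nuclei, a ratio of 1.56 (1.47 to 1.66). It was the deepest of the 10 genes, at percentile 94.0 of all genes by RPM in adult and 96.6 in aged nuclei. The ratio was 1.36 (1.28 to 1.44) over the median gene and 1.53 over loci of 100 to 200 kb.

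Tgfbr2 (chr9:116087695-116175363, minus strand), the ligand-binding kinase, had 196 reads or 20.1 RPM (17.4 to 23.1) in adult nuclei and 182 reads or 31.3 RPM (27.0 to 36.2) in aged nuclei. Its ratio of 1.56 (1.27 to 1.92) was 1.35 (1.10 to 1.66) over the median gene and 1.41 over loci of 50 to 100 kb. It rested more on the BL6 allele, at 1.95 (1.45 to 2.64), than on the CAST allele, at 1.252 (0.929 to 1.68). Tgfbr1 (chr4:47353222-47414926, plus strand), the kinase that phosphorylates SMAD2 and SMAD3, had 261 reads or 26.8 RPM (23.6 to 30.2) in adult nuclei and 134 reads or 23.1 RPM (19.3 to 27.3) in aged nuclei. The 2 levels overlapped and the ratio was 0.862 (0.695 to 1.07), but 0.747 (0.602 to 0.924) over the median gene and 0.779 over loci of 50 to 100 kb. The locus of Gm32435 lies inside that of Tgfbr1, and its listed reads came to 29.1% of those of Tgfbr1 in adult and 26.9% in aged nuclei, so that the source of reads in the shared stretch is uncertain.

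The balance of the 2 kinases differed between the libraries. There were 1.33 reads of Tgfbr1 per read of Tgfbr2 in adult and 0.736 in aged nuclei, 0.553 times as many (0.409 to 0.747). Reads of Tgfbr1 per read of Tgfbr3 were 0.112 and 0.0615, or 0.551 times as many (0.441 to 0.688). Reads of Tgfbr2 per read of Tgfbr3 were close in both, at 0.0838 and 0.0835, or 0.997 times as many with an interval of 0.803 to 1.24. The proportion of Tgfbr1 to the other 2 receptors was thus lower in aged nuclei on any scaling, and for Tgfbr2 and Tgfbr3 the interval leaves room for a difference in either direction.

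The 3 binding proteins went different ways, with Ltbp4 much higher, Ltbp1 nearly level and Ltbp2 lower in aged nuclei. Ltbp4 (chr7:27305140-27339709, minus strand) encodes a matrix protein of elastic fibres that also binds latent TGF beta. It had 434 reads or 44.5 RPM (40.4 to 48.9) in adult nuclei and 659 reads or 114 RPM (105.0 to 123) in aged nuclei. The ratio of 2.55 (2.25 to 2.88) was the highest of the 10 genes, at percentile 95.3 of all genes, and was 2.21 over both the median gene and loci of 20 to 50 kb. Both alleles were higher, by a ratio of 2.31 (1.93 to 2.77) for BL6 and of 2.78 (2.35 to 3.31) for CAST. The locus of Gm30543 lies inside that of Ltbp4, with 25 and 71 reads listed, or 5.76% and 10.8% of those of Ltbp4.

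Ltbp1 (chr17:75005529-75392967, plus strand), which links latent TGF beta to fibrillin and fibronectin, had the longest locus of the 10 genes at 387 kb. It had 1628 reads or 167 RPM (159 to 175) in adult nuclei and 997 reads or 172 RPM (161 to 183) in aged nuclei, with overlapping intervals. The direction depended on the scale, since the ratio was 1.03 (0.949 to 1.11) by total reads and 1.09 over loci above 200 kb, but 0.891 (0.823 to 0.965) over the median gene, 0.995 by the total without the 50 genes with most reads and 0.975 for BL6 reads alone. Ltbp2 (chr12:84783212-84877270, minus strand), a matrix protein of microfibrils that unlike its relatives does not bind latent TGF beta, had the fewest reads of the 10 genes. It had 56 reads or 5.75 RPM (4.34 to 7.46) in adult nuclei and 20 reads or 3.44 RPM (2.10 to 5.32) in aged nuclei, a ratio of 0.600 (0.341 to 1.01). At this depth the interval included 1, while over the median gene it did not, at 0.520 (0.295 to 0.880), and over loci of 50 to 100 kb the ratio was 0.542.

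Between binding proteins the largest difference was that of Ltbp2 per read of Ltbp4, from 0.129 in adult to 0.0303 in aged nuclei, or 0.235 times (0.132 to 0.405). Reads of Ltbp1 per read of Ltbp4 were 3.75 and 1.51, or 0.403 times as many (0.348 to 0.467). Reads of Ltbp1 per read of Ltbp2 were 29.1 and 49.9, or 1.71 times as many (1.01 to 3.04). The intervals of all 3 pairs left out 1, so that the make-up of this family differed between the 2 hearts whatever the scaling.

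Smad3 (chr9:63646766-63757994, minus strand), the transducer, was higher in aged nuclei from both alleles. It had 924 reads or 94.8 RPM (88.8 to 101) in adult nuclei and 1017 reads or 175 RPM (165 to 186) in aged nuclei. The ratio was 1.85 (1.69 to 2.02), or 1.60 (1.46 to 1.75) over the median gene and 1.81 over loci of 100 to 200 kb. It was 1.69 (1.49 to 1.92) for BL6 reads and 2.02 (1.78 to 2.30) for CAST reads.

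Genes were compared with each other per kb of locus, since longer loci collect more reads in nuclei; the number of SNPs in each locus, which also sets the reads, was not used here. In the adult library Tgfbr3 at 1.31 RPM per kb (1.26 to 1.37) and Ltbp4 at 1.29 (1.17 to 1.42) came first and did not differ beyond counting error. Tgfb2 at 0.877 (0.814 to 0.943) and Smad3 at 0.852 (0.798 to 0.909) followed, again with overlapping intervals. Tgfb1, Tgfbr1 and Ltbp1 lay together between 0.431 and 0.471 RPM per kb, above Tgfb3 at 0.281 and Tgfbr2 at 0.229. Ltbp2 was last at 0.0611 RPM per kb (0.0461 to 0.0793).

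In the aged library the intervals at the top did not overlap. Ltbp4 stood at 3.28 RPM per kb (3.04 to 3.54), Tgfbr3 at 2.05 (1.97 to 2.14) and Smad3 at 1.57 (1.48 to 1.67). Tgfb1 at 1.17 RPM per kb (0.974 to 1.40) and Tgfb2 at 1.11 (1.02 to 1.21) were not set apart. Tgfb3, Ltbp1, Tgfbr1 and Tgfbr2 lay between 0.358 and 0.471 RPM per kb, each overlapping its neighbour, and Ltbp2 was last at 0.0366 (0.0224 to 0.0566). Per kb, Tgfb1 was thus below Tgfb2 in adult nuclei and level with it in the aged one.

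The cell types that feed these pooled counts were read from marker genes. Cardiomyocyte markers (6 of 6 listed with at least 20 reads in both libraries) summed to 28084 RPM in adult and 25464 RPM in aged nuclei, dominated by Ttn and Ryr2, and no marker of this list was at 0. Their ratios ran from 0.580 for Ttn to 1.39, with a median of 1.15 beside 1.17 for all genes. Of the 6 markers 4 were higher in aged nuclei, beside 64.2% of all genes. Fibroblast markers (6 of 6) summed to 3999 and 3884 RPM, with ratios from 0.784 to 2.40 and a median of 1.69. Of these 6 markers 5 were higher in aged nuclei, 4 of them at least 1.5-fold, beside 64.2% and 28.0% of all genes. Lama2, which gave the most reads of the list, was lower, at 2717 and 2129 RPM. Smooth muscle markers (4 of 4) summed to 111 and 326 RPM, with ratios from 1.91 to 3.32, and endothelial markers (6 of 6) to 500.1 and 890.3 RPM, with ratios from 0.970 to 3.14. Macrophage markers (6 of 6) summed to 308 and 504 RPM, with ratios from 1.18 to 2.51, and pericyte markers (3 of 5, with Kcnj8 not listed) to 87.4 and 155 RPM, with ratios from 0.853 to 2.33.

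Endocardial markers went the other way, summing to 1513 and 661.9 RPM, with ratios from 0.357 to 0.839 for 3 of 3. Hmcn1 gave most of these reads, at 1152 and 411 RPM, and had the lowest ratio. The small lists of lymphocytes (91.2 and 75.1 RPM), adipocytes (47.6 and 30.3 RPM), mesothelium (46.5 and 11.4 RPM) and Schwann cells (111 and 139 RPM) had 3, 3, 1 and 2 genes above the minimum. By their sums the vascular, mural and macrophage lists were thus higher and the endocardial list lower in aged nuclei. The fibroblast list was slightly lower by its sum, while 5 of its 6 genes were higher. These sums stood alongside the higher levels of Tgfb1, Tgfbr3, Ltbp4 and Smad3 and the lower level of Ltbp2. The part of these cell types in the differences of those 5 genes was not tested. In pooled counts fewer nuclei of a type and less RNA per nucleus cannot be told apart. Over all its nuclei, whichever X chromosome was active, the study reported a smaller share of cardiomyocytes and a larger share of fibroblasts in the aged heart.

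The wider pathway was described with 43 other genes in 4 lists, of which 37 had at least 20 reads in both libraries. 17 of these 37 were at least 1.5-fold higher and 4 at least 1.5-fold lower in aged nuclei, beside the 28.0% and 11.8% of all genes, and their median ratio was 1.41. The genes below the minimum were Thbs1, Acvrl1, Bambi, Col1a1, Lox and Timp1. The median over the median gene was 1.22, where that of the 10 genes was 1.35 and that of all genes 1.01.

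In the list of latency and activation (9 of 10 genes), 4 were at least 1.5-fold higher and 0 at least 1.5-fold lower. These counts stand beside 28.0% and 11.8% of all genes. Of the 9 genes 8 had a ratio above 1, and the median was 1.24, beside 64.2% and 1.17 for all genes. Lrrc32, which holds latent TGF beta on the cell surface, had 50 and 79 reads and a ratio of 2.65 (1.84 to 3.86). Emilin1, an elastic fibre protein that restrains processing of the TGF beta precursor, had 57 and 85 reads and a ratio of 2.50 (1.77 to 3.57). Itgb8, a subunit of an integrin that releases latent TGF beta, had 267 and 298 reads and a ratio of 1.87 (1.58 to 2.22). The fibrillin gene Fbn1, a matrix anchor of the latent complex named after its value was seen, stayed near level at 1.10 (1.02 to 1.19). Of the co-receptors, Eng, the endothelial co-receptor endoglin and the 1 gene of 3 above the minimum, had 75 and 83 reads and a ratio of 1.86 (1.34 to 2.57).

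Among the Smads and their regulators (16 of 16 genes), 6 were at least 1.5-fold higher and 2 at least 1.5-fold lower, beside 28.0% and 11.8% of all genes. The median was 1.253, and 13 of the 16 had a ratio above 1, beside 1.17 and 64.2% for all genes. Smad7, an inhibitory Smad that is itself switched on by TGF beta, had 238 and 463 reads and a ratio of 3.27 (2.79 to 3.84). Smad6, an inhibitory Smad that acts mainly on the bone morphogenetic protein branch, had 595 and 928 reads and a ratio of 2.62 (2.36 to 2.91). Ski, a co-repressor of SMAD complexes, had 2411 and 3103 reads and a ratio of 2.16 (2.05 to 2.28). Smad9, a transducer of the bone morphogenetic protein branch, was lower with 214 and 84 reads and a ratio of 0.659 (0.506 to 0.852). Smad2 and Smad4, the partners of SMAD3 that were named after their values were seen, had ratios of 0.964 (0.841 to 1.10) and 1.12 (1.01 to 1.24), below the ratio of Smad3 at 1.85.

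The list of target genes (11 of 14) had 6 genes at least 1.5-fold higher and 2 at least 1.5-fold lower, beside 28.0% and 11.8% of all genes. Its median was 1.68. Acta2, the smooth muscle actin gene that is also in the smooth muscle marker list, had 217 and 308 reads and a ratio of 2.38 (1.997 to 2.85). Tagln, a target named after its value was seen, is in both lists too, with 36 and 41 reads and a ratio of 1.91 (1.19 to 3.08). Ctgf, a secreted matricellular protein, had 147 and 165 reads and a ratio of 1.88 (1.4997 to 2.37). The matrix genes Fn1 and Col3a1, which encode fibronectin and a fibrillar collagen, were lower, at 0.575 (0.465 to 0.706) with 365 and 125 reads and at 0.654 (0.547 to 0.778) with 465 and 181 reads. The targets therefore did not share a direction, and the plot of ratios by list shows them beside the marker lists.

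**Figure D3:**
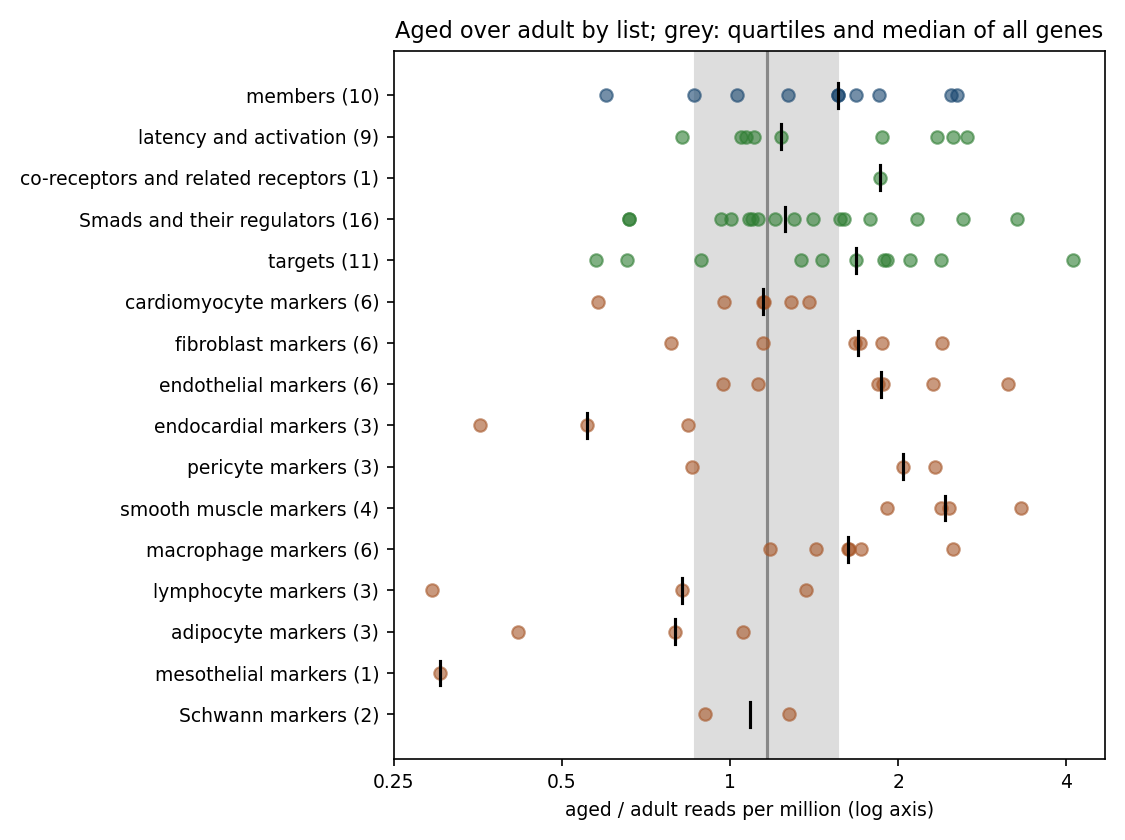
Aged-to-adult ratio of RPM (log axis), 1 point per gene with at least 20 reads in both libraries, for the 10 genes (blue), the pathway lists (green) and the cell type marker lists (orange), with the number of genes in brackets and the list median as a black tick. The grey band and line are the quartiles and median of all genes (0.865, 1.56 and 1.17). Smooth muscle markers lie to the right of the band and endocardial markers to its left, while the 10 genes span from 0.600 to 2.55.

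Both alleles of the 10 genes were read in both libraries. The allelic ratio is given here as the BL6 share of a gene's reads, whose median over 12390 autosomal genes was 53.4% in adult and 53.7% in aged nuclei, with quartiles of 47.7% and 59.6% and of 46.6% and 61.1%. The 10 genes ranged from 35.7% for Ltbp2 to 60.6% for Tgfb2 in adult nuclei and from 35.0% for Ltbp2 to 63.9% for Tgfb3 in aged nuclei, and no gene approached expression from 1 allele. 0 of the 10 genes had an interval on the BL6 side of the autosomal median in both libraries, against 13.7% of autosomal genes, and 0 on the CAST side, against 12.7%. In the adult library the interval lay above the median for Tgfb2, Tgfbr3 and Ltbp1, against 22.6% of autosomal genes, and below it for Tgfbr2 and Ltbp2, against 21.9%. In the aged library it lay below for Ltbp4 and Smad3 and above for none of the 10 genes, against 22.8% of autosomal genes on either side.

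The interval of the difference in BL6 share between the libraries left out 0 for 3 of the 10 genes. Such a count does not set the 10 genes apart from autosomal genes. The BL6 share was higher in adult nuclei for 2 genes, against 12.8% of autosomal genes, and higher in aged nuclei for 1, against 13.7%. For Tgfb2 it was 60.6% (56.9 to 64.2; 432 BL6 and 281 CAST reads) in adult and 52.8% (48.5 to 57.1; 285 and 255 reads) in aged nuclei, a difference of 7.81 percentage points (2.28 to 13.3). For Tgfbr3 it was 56.2% (54.1 to 58.2; 1314 and 1026 reads) in adult and 51.8% (49.7 to 53.9; 1129 and 1050 reads) in aged nuclei, a difference of 4.34 points (1.43 to 7.24). For Tgfbr2 the order was the opposite, with 43.9% (36.8 to 51.1; 86 and 110 reads) in adult and 54.9% (47.4 to 62.3; 100 and 82 reads) in aged nuclei, so that the adult share was lower by 11.1 points, with an interval of the difference from -20.8 to -0.986. With 1 animal per age the spread of an allelic ratio between animals is not known.

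The other 7 genes had differences whose intervals included 0. Smad3 came closest, with 52.7% (49.4 to 56.0) in adult and 48.3% (45.2 to 51.4) in aged nuclei and a difference of 4.43 points (-0.0266 to 8.85). Ltbp4 had 49.5% (44.7 to 54.3) and 44.9% (41.1 to 48.8), and Ltbp1 had 56.0% (53.5 to 58.4) and 53.1% (49.9 to 56.2). Tgfb1 had 49.4% and 48.0%, Tgfbr1 51.0% and 50.7%, and Tgfb3 59.0% and 63.9%, each with intervals that overlapped widely. Ltbp2 had 35.7% (23.4 to 49.6) of 56 reads and 35.0% (15.4 to 59.2) of 20 reads, the lowest share in both libraries and the least precise. The adult share was the higher one for 8 of the 10 genes, where this held for 6085 of the 12390 autosomal genes, and the median difference was 2.16 points beside -0.118 for all of them.

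The level of each allele shows where these shares came from. The BL6 allele of Tgfb2 stood at 44.3 RPM in adult and 49.1 RPM in aged nuclei, while its CAST allele stood at 28.8 and 43.9 RPM. The Tgfbr3 alleles were at 135 and 194 RPM for BL6 and at 105 and 181 RPM for CAST, so both were higher in aged nuclei and the CAST allele by the larger ratio, 1.72 (1.58 to 1.87) beside 1.44 (1.33 to 1.56). For Tgfbr2 the BL6 allele had the larger ratio, at 8.82 and 17.2 RPM, with the CAST allele at 11.3 and 14.1 RPM, and the intervals of these 2 ratios overlapped. Ltbp4 (22.1 and 51.0 RPM for BL6, 22.5 and 62.5 RPM for CAST), Smad3 (49.96 and 84.6 RPM for BL6, 44.8 and 90.6 RPM for CAST) and Tgfb1 (4.21 and 10.2 RPM for BL6, 4.31 and 11.0 RPM for CAST) were higher in aged nuclei from each allele. For Tgfbr1, Ltbp1 and Ltbp2 the interval of the aged-to-adult ratio included 1 for either allele, and for Tgfb3 it included 1 for CAST, at 1.48 (0.794 to 2.73), but not for BL6, at 1.82 (1.13 to 2.94).

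**Figure D4:**
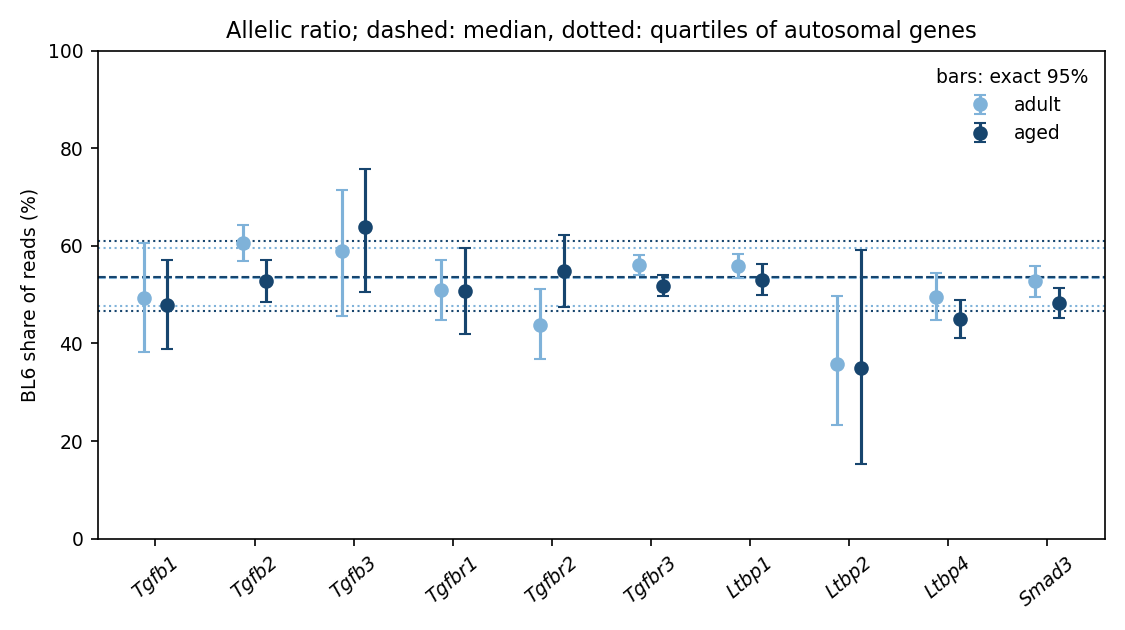
BL6 share of SNP-overlapping reads (%) of each gene in the adult (light) and the aged (dark) library, with exact Clopper-Pearson 95% intervals as bars. The dashed lines are the medians of autosomal genes (53.4% and 53.7%, nearly on top of each other) and the dotted lines their quartiles. The light point of Tgfb2 lies above and that of Tgfbr2 below the adult quartiles, and Ltbp2 is lowest in both libraries.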

How the data were processed

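Each deposited table gives counts of reads over SNPs for each gene, from the BL6 allele, the CAST allele and both. The authors aligned with Cell Ranger 7.1.0 (build mm10), separated reads by nucleus with sinto, pooled nuclei with an active BL6 X chromosome and counted with Allelome.PRO2 over RefSeq loci of GRCm38. The study removed doublets from its expression matrices with DoubletFinder and ambient RNA with CellBender; whether the nuclei pooled here were limited to those that passed is not given in the sources used here, and no doublets could be called from pooled counts. The deposited allelic ratio is a fraction rounded to 2 decimals and was replaced by the share of reads. The deposited allelic score was not used. Whether duplicate reads were collapsed is not given in the sources used here. Ages were taken from the labels; the name of the aged table carries another number of weeks. Starts in the tables count from 0 and are printed counted from 1.

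Counts were divided by the library total times 1e+06. Ratios have exact conditional binomial intervals, levels exact Poisson intervals, BL6 shares exact Clopper-Pearson intervals and their differences (adult minus aged) Newcombe intervals. All are at 95%, treat reads as independent and cover counting error only. Reads are not independent molecules, so the intervals may be too narrow even for that error. The script was tested on simulated data (Python 3.11.15, scipy 1.17.1, pandas 2.3.3). The simulated reads were independent, so that test could not show how well the intervals cover these data. Genes with at least 20 reads in both libraries were compared, and a fold of 1.5 was used for counts.

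The members, lists and alternatives were chosen with earlier results of these data known. Besides the 10 genes, at most 3 pathway genes per list and direction were named, those with ratios furthest from 1 among genes past 1.5-fold with at least 100 reads in both libraries summed. Some of the genes so chosen are not reported here. Alternatives changed the scaling, fold, minimum, allele and allelic reference, and those on locus length, overlapping loci and the list of targets were added after seeing the data. Reads of overlapping loci were not separated, and strand was not used here.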

Additional observations from a re-analysis of the deposited data

How the results depend on the processing

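Autosomal scaling changed the divisor by a factor of 1.001, too little to change the direction of any of the 10 aged-to-adult ratios. Scaling to the median of ratios (a shift of 1.154 in the divisor) left 3 genes at least 1.5-fold higher in place of 6, and it turned Ltbp1 from 1.03 to 0.891, as did the total without the 50 genes with most reads (0.995) and BL6 reads alone (0.975), by small amounts. A fold of 2 left 2 genes higher and 0 lower. A minimum of 100 reads left 4 higher and 0 lower, since it removes Ltbp2, Tgfb1 and Tgfb3. Leaving out the 5 genes that overlap another locus, among them Ltbp2, Ltbp4 and Tgfbr2, also left 4 higher and 0 lower. Of the pathway genes (17 higher and 4 lower), 9 and 0 remained past a fold of 2 and 8 and 2 with a minimum of 100 reads. Without the list of targets 11 and 2 of 26 remained, beside 28.0% and 11.8% of all genes. For a fold of 2, a minimum of 100 reads and the removal of overlapping loci, the share of all genes is not given here. Those counts therefore cannot be set against a background. No gene had a BL6 share higher in the adult library by at least 10 percentage points with an interval that left out 0 (0 in place of 2), and with the autosomal median subtracted there were 3. The count of genes on 1 side of the autosomal median in both libraries was 0 under each reference tried. No paired analysis was possible because there was 1 library per age, and no replicate could be left out for the same reason. Depth limits Ltbp2, Tgfb3 and Tgfb1 most, with 20, 61 and 83 reads in their shallower library.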
